A study of Homo sapiens with 16 samples.

Results

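AXL and GAS6 are a receptor and its ligand, and both were named in the table of enriched biological processes deposited for brain metastases of HCC1954 cells. They were taken by gene identifier from every row that names either of them, and the rows of the MDA231 table were searched in the same way. They are 2 of the 30 genes named in the HCC1954 table and 2 of 2676 named in either table. They were chosen by their presence in the rows of these tables, so the number of rows they are in is a description and is not tested.

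AXL is a receptor tyrosine kinase of the TAM family, whose other members are TYRO3 and MERTK. GAS6 is a secreted protein that needs vitamin K-dependent carboxylation; it binds phosphatidylserine exposed on dying cells with one end and a TAM receptor with the other. The bridge lets phagocytes engulf dead cells, and the receptor signals through PI3-kinase and protein kinase B and restrains interferon and Toll-like receptor responses in dendritic cells and macrophages. In brain, TAM receptors are known from microglia and GAS6 from neurons, glia and vessels; in carcinoma cells AXL is known for its association with a mesenchymal state.

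Of the established breast cancer lines used, HCC1954 is ERBB2-positive and MDA231 is triple-negative. The cells injected into mice were the brain-metastatic derivatives HCC1954-BrM and MDA231-BrM. All brains were collected 30 days after injection and 12 hours after 250 mg/kg 5-fluorocytosine, the compound that Flura-seq uses to tag new RNA in cells able to convert it. The labels give 4 input and 4 anti-BrdU immunoprecipitated (IP) libraries for HCC1954 and 4 of each for MDA231, 16 in all. The host strain, the number of clones behind each line and whether libraries came from separate mice were not found in the labels. The 2 tables hold no value per library, so the level of AXL or GAS6 in any library, its depth and its replicate error are unknown here. Neither table gives the direction of its genes between IP and input RNA, and in bulk RNA fewer cells of a type and less RNA per cell cannot be told apart.

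Each table row is a Gene Ontology term with the genes of the submitted list that carry it. A term's background genes are all the genes that carry it among the 16792 of the background. Its fold enrichment is the share of the list in the term divided by the share of the background in it. The HCC1954 list had 66 genes with a process and the MDA231 list 3626. All intervals below are exact (Clopper-Pearson) 95% binomial intervals of a fold, computed here. They cover the draw of genes into the list only, and say nothing of the spread between libraries. The terms were already listed for an unadjusted p under 0.1, so the intervals lean toward enrichment and are not a test of it. Some lie wholly above no enrichment though the deposited p is above 0.05.

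AXL (ENSG00000167601) lies on chromosome 19 of GRCh38 from 41219203 to 41261766 on the plus strand, and GAS6 (ENSG00000183087) on chromosome 13 from 113820549 to 113864067 on the minus strand, both in GENCODE release 29. The 250 bases before each RefSeq start site (GRCh38.p14) are printed because 1 of the pair's shared rows is a response to interferon-alpha, so the letters of an interferon-stimulated response element were looked for, with those of 4 common promoter motifs. Capitals mark a match on either strand to the AP-1 site TGANTCA, the SP1 GC box GGGCGG, the TEAD site GGAATG, the core of the interferon-stimulated response element (GAAA, 2 free bases and GAAA) or the TATA box TATAAA. The windows are chr19:41218973-41219222 and chr19:41226505-41226754 on the plus strand for the pair of AXL starts, and chr13:113864077-113864326 on the minus strand for GAS6, each written 5′ to 3′ toward the gene.
AXL, first start: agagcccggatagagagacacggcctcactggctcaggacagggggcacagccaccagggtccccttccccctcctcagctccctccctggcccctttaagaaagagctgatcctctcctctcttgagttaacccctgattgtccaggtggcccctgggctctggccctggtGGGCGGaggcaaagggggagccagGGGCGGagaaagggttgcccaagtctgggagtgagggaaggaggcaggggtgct
AXL, second start: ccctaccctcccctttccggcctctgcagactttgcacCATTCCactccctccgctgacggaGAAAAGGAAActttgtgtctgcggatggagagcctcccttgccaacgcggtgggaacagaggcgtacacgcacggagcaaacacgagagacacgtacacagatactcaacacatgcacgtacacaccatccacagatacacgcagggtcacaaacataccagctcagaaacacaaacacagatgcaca
GAS6: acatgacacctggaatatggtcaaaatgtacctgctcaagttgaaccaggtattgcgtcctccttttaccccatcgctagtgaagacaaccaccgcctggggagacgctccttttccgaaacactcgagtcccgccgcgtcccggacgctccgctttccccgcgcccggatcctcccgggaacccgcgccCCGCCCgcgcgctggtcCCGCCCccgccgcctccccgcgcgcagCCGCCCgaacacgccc

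The first AXL window held 2 GC boxes and the GAS6 window 3, the nearest ending 49 and 11 bases before the start. A GC box was in 42.6% of the 35116 RefSeq windows of this length, so its presence in both is common. The second AXL window, which is intronic in the longer transcripts, held 1 TEAD site, a motif in 11.9% of windows, and 1 interferon-stimulated response element core 179 to 188 bases before the start, a motif in 3.02% of windows. The first AXL window and the GAS6 window held neither of those, and none of the 3 windows held the letters of an AP-1 site or a TATA box. These are matches of letters; no file used here measures binding or a start site in these cells.

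AXL was in 10 of the 37 terms listed for HCC1954 (27.0%) and GAS6 in 13 (35.1%). They stood together in 9, so 90% of the AXL terms named GAS6 and 69.2% of the GAS6 terms named AXL. Together the pair reached 14 terms, and 23 named neither. The 37 terms are the 5.23% of 707 tested terms that had an unadjusted p under 0.1. Of the 14 terms of the pair, 11 passed an unadjusted p of 0.05 in the authors' deposited table, where 67.6% of all 37 did. None of the 14 had a Benjamini-adjusted p under 0.05, and 0% of the 37 did; the adjusted values of the pair's terms ran from 0.746 to 0.994 in the authors' deposited table.

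**Figure D1:**
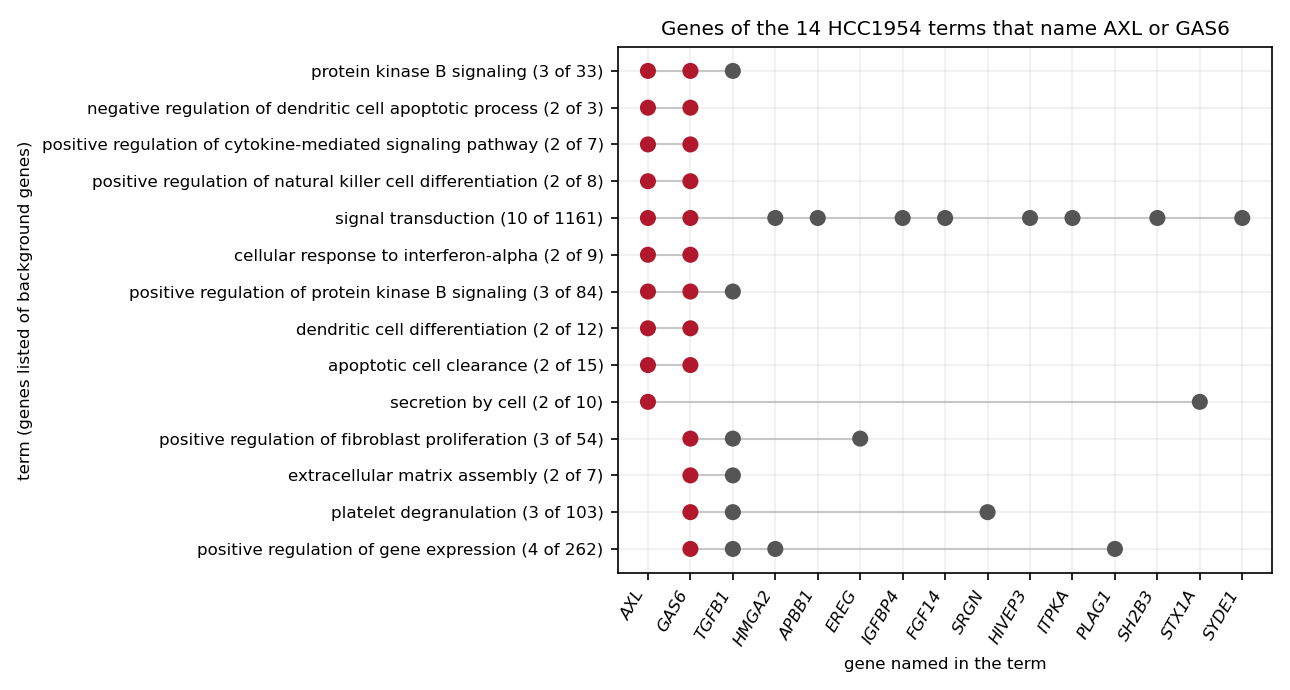
Each row is 1 of the 14 HCC1954 terms that name AXL or GAS6, with its listed and background genes in brackets, and each dot is a gene named in it (AXL and GAS6 in red, others in grey). The 9 upper rows hold both genes, 1 holds AXL with STX1A, and the 4 lowest hold GAS6 with TGFB1.

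The 6 following shared terms are listed first because the pair were their sole members. The smallest was the one on dendritic cell survival, negative regulation of dendritic cell apoptotic process. It has 3 background genes, of which AXL and GAS6 are 2, and its fold enrichment was 170 (interval 20.7 to 589; unadjusted p = 0.0116) in the authors' deposited table. Dendritic cell differentiation held the pair among 12 background genes at 42.4-fold (interval 5.17 to 147; unadjusted p = 0.0455) in the authors' deposited table. Dendritic cells take up antigen and start T cell responses, and no marker of theirs from a list of 7 was named in either table. For scale, 0.179% of all background genes were named for HCC1954 and 15.8% for MDA231.

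The natural killer cell term, positive regulation of differentiation, held the pair among 8 background genes. Its fold enrichment was 63.6 (interval 7.75 to 221; unadjusted p = 0.0306) in the authors' deposited table. TAM receptors are known to act in the maturation of these cells. None of 7 natural killer cell markers was named in either table, against the same shares of background genes as above.

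For cytokine responses, the term for promoting cytokine-mediated signaling held the pair among 7 background genes, at 72.7-fold (interval 8.85 to 252; unadjusted p = 0.0268) in the authors' deposited table. Cellular response to interferon-alpha held it among 9, at 56.5-fold (interval 6.89 to 196; unadjusted p = 0.0343) in the authors' deposited table. The other 7 background genes of the interferon-alpha term were not among the listed genes. Apoptotic cell clearance, the best known task of the pair, held it among 15 background genes at 33.9-fold (interval 4.13 to 118; unadjusted p = 0.0565) in the authors' deposited table. It was the only one of these 6 with an unadjusted p above 0.05.

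The 2-gene terms of the table can be set side by side because they share a list size and a gene count. There were 19 of them, and across all 19 the order of the deposited p was the order of the numbers of background genes, with equal p at equal numbers. That order follows from the calculation, since gene count, list size and total background are the same in all 19. It is not a result about the pair. Extracellular matrix assembly (GAS6 and TGFB1) and the cytokine term above each have 7 background genes and the same fold and p. Mesenchymal cell differentiation, which names BMP7 and HMGA2, shares its 8 background genes, fold of 63.6 and unadjusted p of 0.0306 with the natural killer cell term in the authors' deposited table. The 6 terms of the pair alone had a median of 8.5 background genes and the other 13 a median of 15. Neither the fold nor the p of these terms carries a level of AXL or GAS6.

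**Figure D2:**
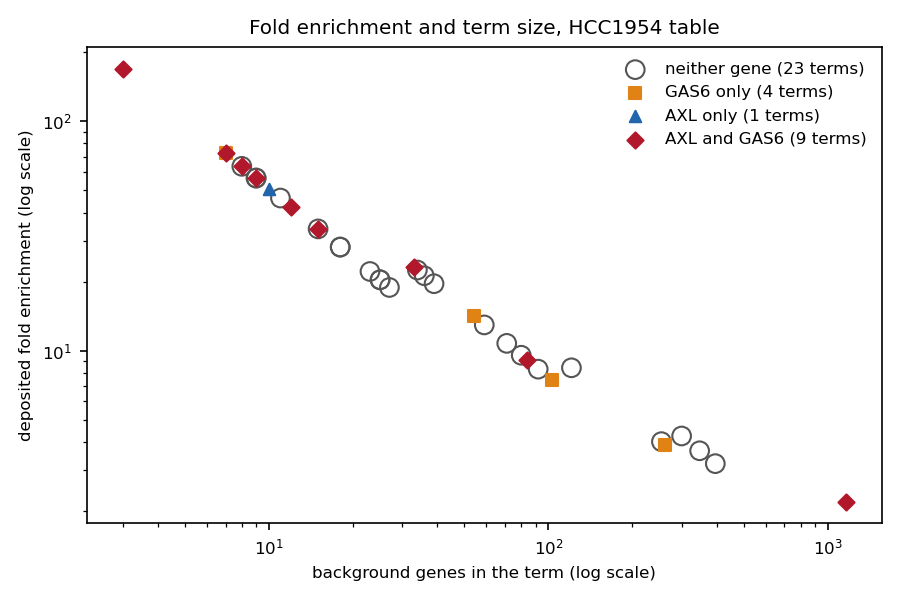
Fold enrichment in the authors' deposited table (log scale) against the number of background genes (log scale) for the 37 HCC1954 terms, marked by which of AXL and GAS6 they name. The pair's terms lie along the same falling band as the 23 others (open circles), from 170-fold at 3 background genes to 2.19-fold at 1161. At a given number of listed genes the fold is set by the number of background genes alone, so the band follows from the definition.

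Of the 13 terms with at most 15 background genes, 8 named AXL or GAS6 and 6 named both. The median fold enrichment was 42.4 over the 9 shared terms, 38.2 over all 14 terms of the pair and 20.4 over the 23 others in the authors' deposited table. Over the 14 terms the median number of background genes was 13.5, and over the 23 others 34.

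Protein kinase B, also called AKT, is the survival kinase downstream of AXL, and 2 shared terms concerned it. Both named AXL, GAS6 and TGFB1, the cytokine transforming growth factor beta 1, and no other gene. Protein kinase B signaling has 33 background genes and the smallest unadjusted p of the table, 0.00721, with a fold of 23.1 (interval 4.82 to 64.7) in the authors' deposited table. Its positive regulation has 84 background genes and a fold of 9.09 (interval 1.89 to 25.4; unadjusted p = 0.0420) in the authors' deposited table. The 2 terms name the same 3 genes and are not separate evidence.

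The last shared term, signal transduction, was the broadest, with 10 listed of 1161 background genes and a fold of 2.19 (interval 1.09 to 3.78; unadjusted p = 0.0340) in the authors' deposited table. Beside the pair it named 8 genes of varied roles. They were FGF14, an intracellular fibroblast growth factor; IGFBP4, a binding protein of insulin-like growth factors; SH2B3, an adaptor that damps cytokine receptor signalling; ITPKA, an inositol trisphosphate kinase; SYDE1; APBB1, an adaptor of the amyloid precursor protein; HIVEP3, a zinc finger protein; and HMGA2, a chromatin protein. TGFB1 was not among them.

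Outside the shared terms the receptor and the ligand kept different company. The 4 terms with GAS6 and without AXL all named TGFB1. The fibroblast proliferation term (positive regulation) added EREG, which is epiregulin, an EGF-family ligand, at 14.1-fold (interval 2.95 to 39.5; unadjusted p = 0.0186) in the authors' deposited table. The matrix assembly term held GAS6 and TGFB1 alone, with 7 background genes. Platelet degranulation added SRGN, a proteoglycan of secretory granules, at 7.41-fold (interval 1.54 to 20.7; unadjusted p = 0.0604) in the authors' deposited table. The term for positive regulation of gene expression added HMGA2 and PLAG1, a zinc finger transcription factor, at 3.88-fold (interval 1.07 to 9.48; unadjusted p = 0.0811) in the authors' deposited table. GAS6 thus shared 6 of its 13 terms with TGFB1. TGFB1 was the gene in the most HCC1954 terms, 21 of 37. It was in 15 of the 23 terms that named neither AXL nor GAS6, so sharing terms with it was not particular to GAS6.

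The single term with AXL and without GAS6 was secretion by cell, where its partner was STX1A, a syntaxin of vesicle fusion. It has 10 background genes and a fold of 50.9 (interval 6.20 to 177; unadjusted p = 0.0381) in the authors' deposited table. AXL shared 2 of its 10 terms with TGFB1, the 2 on protein kinase B, both of which also named GAS6.

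By the overlap of their terms, GAS6 was the gene most like AXL in the HCC1954 table, with a Jaccard index (shared terms over all terms of either) of 0.643 across 14 terms. The next most like AXL reached 0.1, a tie of HIVEP3, ITPKA, SH2B3, STX1A and SYDE1, each of which is in 1 term only. For GAS6, TGFB1 followed AXL at 0.214 and HMGA2 at 0.105. In all, 13 other genes shared a term with AXL or GAS6, and 15 of the 30 shared none, among them BMP7 with 7 terms, CCN3 with 6 and ANKRD1 with 4. The Jaccard index depends on how many terms a gene is annotated to as well as on the list, and is given as a description.

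Because many of these terms rest on 2 genes, each fold was recomputed with AXL or GAS6 taken out of the term, the list and the background. Without AXL, 7 of its 10 terms had 1 gene left, under the 2 that is the fewest of any listed term. Without GAS6, 7 of its 13 terms did. The fold of the dendritic cell survival term was 129 with either gene left out, and protein kinase B signaling went from 23.1 in the authors' deposited table to 16.1. Secretion by cell was 28.7 without AXL, and extracellular matrix assembly 43.1 without GAS6. Over all 28 recomputed folds, the ratio to the deposited fold ran from 0.544 to 1.02. Taking 1 gene from so small a count cannot move a fold outside its wide interval, so this is a description of how much each term rests on 1 gene.

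**Figure D3:**
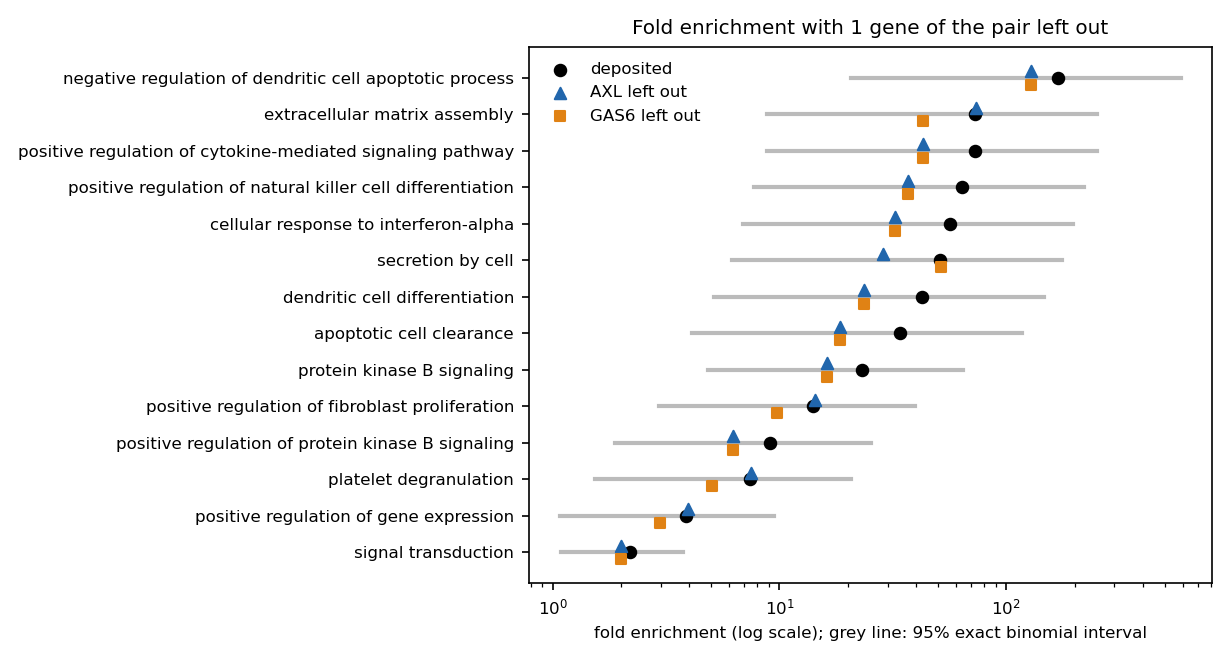
Fold enrichment (log scale) of the 14 terms as deposited (black), with AXL left out (blue triangles) and with GAS6 left out (orange squares), over the 95% exact binomial interval of the deposited fold (grey). The recomputed values run from 129 for the dendritic cell survival term to 2.00 for signal transduction.

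In the MDA231 table AXL was in 0 of 314 terms and GAS6 in 0. This was not particular to the pair: 0 genes and 0 terms were common to the HCC1954 and MDA231 tables. Of all background genes, 15.8% were named for MDA231 and 0.179% for HCC1954, so most genes are unnamed for MDA231. The counts of 0 for AXL and GAS6 were the same when every identifier and synonym of both was searched. The 14 terms themselves were not among the 314. A gene is named only if a listed term holds it, and 980 of the 3626 MDA231 genes with a process were not named. Being unnamed therefore does not show that AXL or GAS6 was outside the MDA231 list.

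How many listed genes a small term needed differed between the tables. In the MDA231 table the fewest listed genes of any term were 4, against 2 for HCC1954. The MDA231 terms with 7 or with 8 background genes held at least 5, those with 9 or 10 at least 6, those with 12 at least 6 and those with 15 at least 7. In the HCC1954 table, terms made up of AXL and GAS6 alone were found at 7, 8, 9, 12 and 15 background genes, each with 2 listed genes. At these sizes 2 listed genes were fewer than any listed MDA231 term held. At 33 background genes the MDA231 minimum was 12, against 3 for protein kinase B signaling in HCC1954. The lists held 3626 and 66 genes with a process, so numbers of listed genes are not comparable between the lines.

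**Figure D4:**
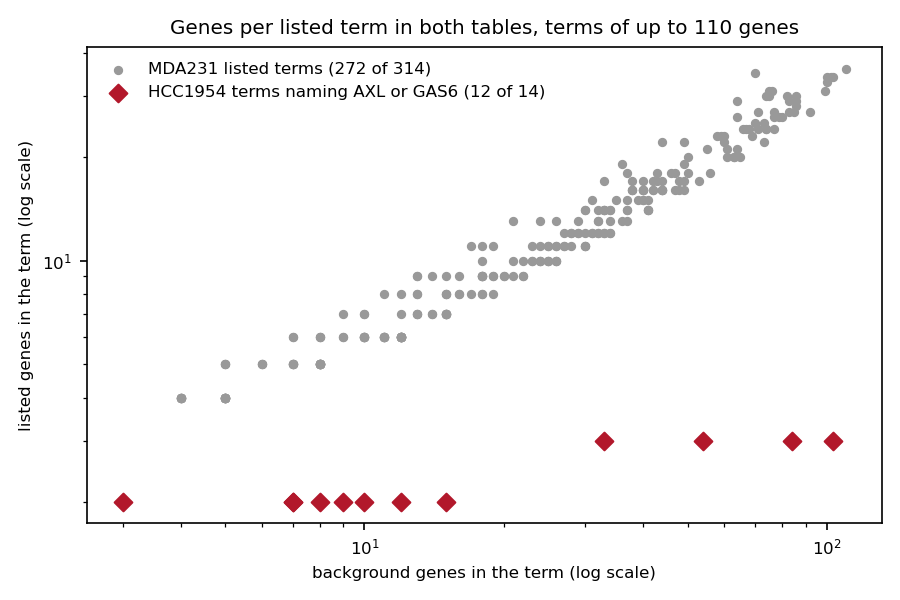
Listed genes per term (log scale) against background genes per term (log scale), for terms of up to 110 background genes, with 272 MDA231 terms in grey and 12 HCC1954 terms naming AXL or GAS6 in red (2 of which coincide). The HCC1954 terms sit at 2 or 3 genes at every size, below every MDA231 term, the lowest of which has 4. The lists differ in size (66 genes with a process for HCC1954 and 3626 for MDA231), so these numbers are not comparable between the lines.

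The other TAM genes and the pathway around them were then looked up in both tables. Beside the pair, none of TYRO3, MERTK, PROS1 (the second TAM ligand), TUB, TULP1 and LGALS3 was named for either line. None of 6 genes for carboxylation, processing and shedding was named either, among them GGCX and VKORC1, which serve the carboxylation of GAS6, and ADAM10 and ADAM17, proteases that cut AXL from the cell surface. Across 6 lists with 68 genes, 2 were named for HCC1954, AXL and GAS6 themselves, where 0.179% of background genes were named. For MDA231, 17 of 68 (25%) were named, where 15.8% of background genes were. These were not spread evenly: 66.7% of the 12 genes of the interferon receptor and feedback list were named. The other lists ran from 0% to 28.6%.

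The 17 MDA231 names came from 4 of the 6 lists. The shares named were 27.8% for kinase signalling, 11.8% for dead cell clearance, 28.6% for paired receptors and 66.7% for interferon. Over all background genes the share was 15.8%. Of 18 genes for kinase signalling used by AXL, 5 were named: MTOR in 16 terms, PDPK1 in 8, PIK3R1 in 7, GRB2 in 4 and PIK3R2 in 3. Of 17 genes for bridges and receptors of dead cell clearance, 2 were named, the integrin ITGAV in 3 terms and DOCK1, an activator of Rac, in 2. Of 7 receptors known to pair with AXL, ERBB2 was in 6 terms and ERBB3 in 1. From the list for the interferon receptor and its feedback, SOCS1 was in 5 terms, the receptor chains IFNAR1 and IFNAR2, the kinase JAK1 and SOCS3 in 4 each and TYK2 and USP18 in 2 each.

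Interferon terms were thus listed for both lines with different genes. The HCC1954 table had 1, cellular response to interferon-alpha, with AXL and GAS6 alone. The MDA231 table had 6, led by the type I interferon pathway with 29 of 64 background genes at 2.10-fold and an adjusted p of 0.0310 in the authors' deposited table. Protein kinase B appeared in 1 MDA231 term, its negative regulation, with 13 of 37 genes at 1.63-fold (unadjusted p = 0.0842) in the authors' deposited table, against the 2 HCC1954 terms above. The MDA231 table had no term whose name held the words dendritic, natural killer, apoptotic cell, cytokine, extracellular matrix, fibroblast or platelet. Secretion, a word of the term that named AXL with STX1A, was in 1 MDA231 term. That was interleukin-4 secretion, with 4 of 5 background genes (unadjusted p = 0.0708) in the authors' deposited table. Terms on these subjects under other words were not looked for. The folds of the tables cannot be compared, because the largest possible fold is 254 for HCC1954 and 4.63 for MDA231.

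Markers of other cells of a brain were looked up in the same way, since TAM genes are also expressed there. Of 41 markers of microglia and macrophages, dendritic cells, natural killer cells, endothelium, astrocytes and oligodendrocytes, 0 were named for HCC1954 and 1, the endothelial PECAM1, for MDA231. Over all background genes the shares named were 0.179% for HCC1954 and 15.8% for MDA231, so 0 of 41 says little for HCC1954. A marker that is listed but in no listed term would not be seen, so the part of these cells in the naming of AXL and GAS6 was not tested. The processing notes name a human and a mouse genome build, and how reads were assigned between them is not given in any source used.

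AXL lies close on its chromosome to TGFB1, the gene named with the pair in both protein kinase B terms. TGFB1 (ENSG00000105329; chromosome 19, 41301587 to 41353911, minus strand) lies past the end of AXL, with a gap of 39.8 kb between the annotated genes, in which 1 other protein-coding gene, HNRNPUL1, begins. Of the 27 pairs of HCC1954 genes that share a chromosome, AXL and TGFB1 were the closest; the next, APLP1 and AXL, were 5339 kb apart. Of 15 protein-coding genes within 250 kb of AXL, TGFB1 alone was named for HCC1954, and EXOSC5 and BCKDHA were named for MDA231. Of 6 within 250 kb of GAS6, 0 were named for HCC1954 and 1, TFDP1, for MDA231. Over all background genes 15.8% were named for MDA231, near the shares of these neighbours, and 0.179% for HCC1954. This look at neighbours was chosen after the names were seen.

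The antisense gene GAS6-AS1 overlaps GAS6 over 25.2 kb of its 43.5 kb, and an antisense gene overlaps AXL over 0.626 kb. These overlaps are of whole annotated genes, introns included. Strand-specific counting is not stated in any source used, so whether reads of GAS6 and of its antisense partner were told apart is not known. A divergent long non-coding gene, GAS6-DT, begins inside the printed GAS6 window and runs the other way.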

How the data were processed

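Per the labels' protocols, mRNA was captured from mouse brains on oligo(dT) beads and precipitated with an anti-BrdU antibody, at 2.5 µg for each brain. The submitters' processing notes name STAR, HTSeq, GRCh38 and GRCm38. Versions, the enrichment tool, the choice of listed genes and any pooling of replicates are not stated there or in the labels. The deposited tables give, per the file headers, numbers of genes, the percent of submitted genes, a fold enrichment (a ratio of shares) and p-values with and without adjustment, for each term. Depth per library is unknown here.

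The deposited fold was recomputed from the deposited gene numbers and differed by less than 0.001%. The number of tested terms was derived from the Bonferroni column. Identifiers were matched to symbols (30 of 30 HCC1954 and 2645 of 2646 MDA231 genes). Counting, overlap and fold steps were tested on simulated tables. No test was made: the planned comparison of IP with input needs values per library. Genes named were AXL, GAS6, genes sharing a term with either, those with the most similar terms and, from 12 gene lists, the named members in most terms (up to 5 of each). The interferon list beyond 5, the chromosomal neighbours and BMP7, CCN3, ANKRD1 and APLP1 were added after their values were seen; 1 result of that list is not reported here. Members and lists were chosen with earlier results of these data known. Python 3.11.15, SciPy 1.17.1 and Matplotlib 3.10.9 were used.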

Additional observations from a re-analysis of the deposited data

How the results depend on the processing

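The counts of terms depended on how terms were counted. With only terms of at least 10 background genes, AXL was in 6 terms, GAS6 in 8, both in 5 and either in 9. With at least 3 listed genes per term the counts were 3, 6, 3 and 6. With terms whose genes overlapped at a Jaccard index of 0.5 or more counted once, 16 of 37 terms were left, with 3 for AXL, 3 for GAS6, 2 for both and 4 for either. At an unadjusted p under 0.05, with 25 of 37 terms left, the counts were 9, 10, 8 and 11. Each of these settings removes terms by construction. When 1 gene was not counted and at least 2 others were required, GAS6 was in 7 terms without AXL, AXL in 4 without GAS6, and either in 13 without TGFB1; the settings for either gene were added after the data were seen. The count of 0 for MDA231 was the same under both of its alternatives. The alternative of an unadjusted p under 0.05 keeps a part of the same terms, so its count could only be 0. The fold of a term with AXL or GAS6 left out was between 0.544 and 1.02 times the deposited fold over the 28 values, which follows from taking 1 gene from a small count. No paired analysis was possible because the tables hold no value per library, and leaving out single replicates was not run for the same reason.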
